A study of Homo sapiens with 13 samples.

Results

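The tandem poly(A) sites described here are 558 CCDS entries (558 genes) whose 3’ mRNA isoforms end more than 1000 nt apart downstream of the same stop codon. They were selected on the merged wild-type values: an entry had to hold at least 200 scaled reads and a pair of isoforms more than 1000 nt apart, each with at least 10% of the entry’s reads. Of 14952 CCDS entries with reads in the merged wild-type file, 5999 held at least 200 reads, and 4224 of those had tandem isoforms of at least 10% at any spacing. The 558 members are thus 9.30% of the entries with 200 reads, and 3005 entries had outermost isoforms 1 to 50 nt apart. Reads of each member were divided at the midpoint between its outermost qualifying isoforms, and the distal share is the percentage of reads beyond that midpoint.

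The libraries were 3’ READS libraries, which sequence the 3’ ends of poly(A) RNA, made from HEK293 cells of the Flp-in TREX kind, a line of human embryonic kidney origin. There were 4 libraries of cells expressing R749H Rpb1 and 5 of cells expressing wild-type Rpb1, the largest subunit of RNA polymerase II (Pol II). In both groups the transgene was α-amanitin resistant, was named Avitag in the sample titles and B10 in the source names, was integrated by Flp recombination and was induced by doxycycline at 2 µg/ml, for 24 hr by the labels and for a shorter time by the methods. Both groups were then treated with α-amanitin at 2.5 µg/ml for 42 hr, so that the endogenous Pol II was inhibited in the controls as well. The methods call the libraries biological replicates. Because the labels name no separate cultures, p-values measure only the spread between these libraries, which may be technical.

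Most human genes carry more than a single poly(A) site, and a pre-mRNA is cleaved where the cleavage and polyadenylation complex recognises a hexamer, most often AAUAAA, upstream of the cut and U- or GU-rich sequence downstream of it. Cleavage at a proximal site gives a short 3’ UTR and removes the binding sites for microRNAs and RNA-binding proteins that the longer isoform carries. Pol II transcribes the proximal site before the distal one, so sites far apart leave a long interval between them, and R749H is known as a substitution that slows elongation. The comparison asks how the use of such distant sites differs between cells with the 2 Pol II forms. Each form was expressed in its own cell line, so Pol II form and cell line cannot be told apart.

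Sites of 5 called members, which include both directions and each annotation class found for distal sites of called members, and of NUDT21, a gene of the machinery itself, are shown first. NUDT21 encodes the small subunit of cleavage factor I, which binds UGUA upstream of poly(A) sites. Each line gives the last 30 nt before the mapped 3’ end in GRCh37 (hg19), sense strand, with the poly(A) signal hexamer in capitals.
CCDC9 proximal: cccctccccAATAAAgaattcacatcctcc
CCDC9 distal: cctgtcgtATTAAAcgcagtgcttccgctc
WDR26 proximal: tttaaaAATAAAttaagaagtatttatagg
WDR26 distal: caatccAATAAAcagaatgaatacctaaat
VMA21 proximal: tgAATAAAgttgaaagaacatgttaaagtc
VMA21 distal: gatgtcATTAAAaaaagtgtttgtagtgct
NDUFA7 proximal: tttaaaaAATAAAaaaatagagacagagtc
NDUFA7 distal: ctgccatATTAAAgaagatcacgaggcagt
ACSL3 proximal: ctgacaggattAGTAAAacattaagacagc
ACSL3 distal: agtttgaagAATAAAgatctataaaagttg
NUDT21 proximal: acagtgtagAATAAAtgtggtagaaaagtt
NUDT21 distal: attgtcatttcAATAAAaaatatttgaaag

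The CCDC9 windows are chr19:47775179-47775208, in the annotated 3’ UTR, and chr19:47777062-47777091, outside annotated genes of that strand, both on the plus strand. The WDR26 windows are chr1:224576839-224576868, in the 3’ UTR, and chr1:224572847-224572876, outside annotated genes of that strand, on the minus strand. VMA21 has both sites in the same 3’ UTR exon on the plus strand, at chrX:150573603-150573632 and chrX:150577806-150577835. These 3 genes have AATAAA at the proximal site, and CCDC9 and VMA21 have ATTAAA at the distal site. The NDUFA7 windows are chr19:8376247-8376276, in the 3’ UTR, and chr19:8373481-8373510, in an intron of longer annotated NDUFA7 transcripts, on the minus strand. ACSL3 has both sites in a single 3’ UTR exon on the plus strand, at chr2:223806510-223806539 and chr2:223809311-223809340. NUDT21 also has both in its 3’ UTR, on the minus strand, at chr16:56466537-56466566 and chr16:56463049-56463078, with an exon of another annotated gene of that strand between them, so that the assignment of its distal reads is uncertain. ACSL3 alone among these 6 genes has a variant hexamer, AGTAAA, at the proximal site.

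Over all 558 members, the proximal isoform ended a median of 356 nt after the stop codon (range 3 to 3107) and the distal isoform 2602 nt (range 1142 to 4999). The outermost isoforms were a median of 1909 nt apart, 259 members were spaced by more than 2000 nt, and 99 by more than 3000 nt. Reads were assigned only up to 5 kb past the stop codon, which bounds the distal positions. At least 3 such isoforms were present in 366 members, and 192 members had exactly 2 such isoforms. The 2 outermost isoforms together held a median of 51.9% of the reads of a member (range 21.1% to 96.3%). Distal shares therefore also count reads of other isoforms on each side of the midpoint. In pooled wild-type libraries the distal share ranged from 10.7% to 88.5% with a median of 45.8%, and it exceeded 50% in 249 members. These values follow in part from the selection and are given as a description.

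**Figure D1:**
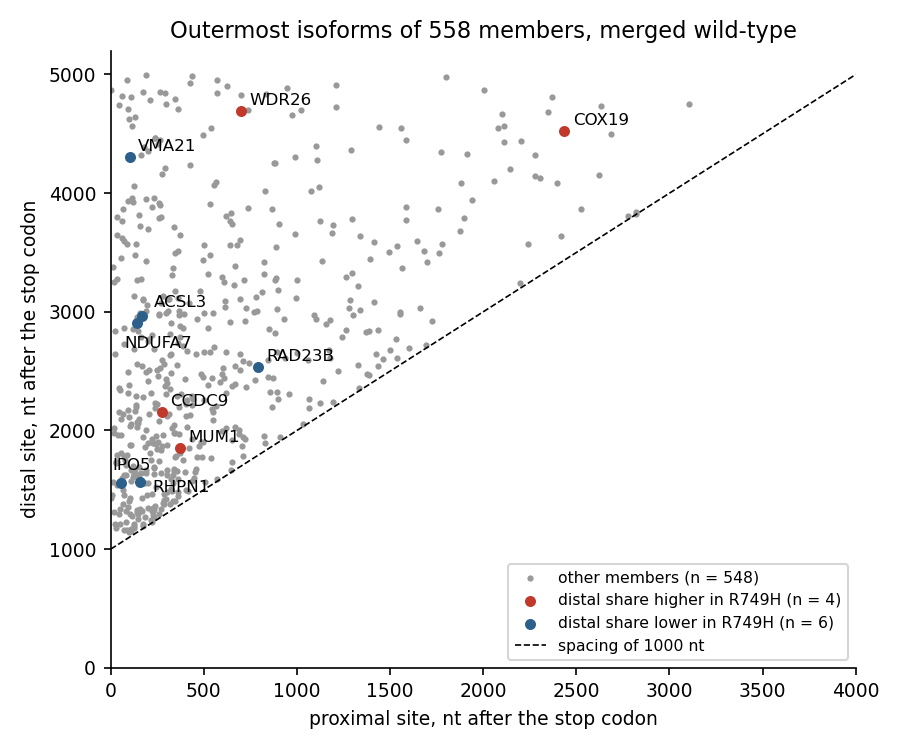
Position of the proximal (x axis) and the distal (y axis) outermost isoform in nt after the stop codon, for 558 members in the merged wild-type data. The dashed line marks a spacing of 1000 nt, the selection threshold, and the 10 members with a changed distal share (coloured) lie across the range of spacings, from 1413 nt (RHPN1) to 4203 nt (VMA21).

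The annotation placed 556 proximal sites in the 3’ UTR of the gene itself and 2 in an exon of another gene. Of the distal sites, 482 (86.4%) lay in the gene’s annotated 3’ UTR, 57 outside annotated genes of that strand, 9 in an exon of another gene, 7 in an intron of the gene and 3 in an intron of another gene. For 471 members, 1 annotated exon spanned both sites. No annotated transcript of the gene reached the 57 distal sites outside annotated genes. Their reads were attributed to the gene only by the stop codon upstream, so that assignment is uncertain too. CCDC9, WDR26, TANGO2, MELK, ZNF256, SNAP29 and CSTF1, all described below, have such distal sites. An exon of another gene of the same strand lay between the sites in 39 members, and for these the assignment of distal reads to the upstream stop codon is uncertain. NDUFB10, which encodes an accessory subunit of respiratory complex I, is such a case. Its distal site lay 3601 nt after the stop codon, in an exon of SNHG9, a noncoding RNA host gene of the same strand.

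The sequence before the sites was not used in the selection. Within 40 nt before the mapped end, on the sense strand, AATAAA was present at 280 proximal sites (50.2%) and 371 distal sites (66.5%). ATTAAA, counted where AATAAA was missing, was present at 97 proximal (17.4%) and 92 distal sites (16.5%). One of 10 other variants (AGTAAA or TATAAA or CATAAA or GATAAA or AATATA or AATACA or AATAGA or AATGAA or ACTAAA or AAGAAA) was the best match at 114 proximal and 72 distal sites. None of the 12 hexamers was found at 67 proximal sites (12%) and 23 distal sites (4.12%). The most used isoform of all 5999 entries had AATAAA in 67.7% and none of the 12 in 4.5%, close to the distal sites. Windows of the same length 200 nt further upstream held AATAAA at 0.717% of proximal and 1.61% of distal sites, and any of the 12 at 14.2% and 15.6%. For the 161 members with a proximal site within 200 nt of the stop codon, the proximal window lay outside the 3’ UTR. The proximal and distal windows are thus not fully alike. Where present, AATAAA began a median of 20 nt (proximal) and 21 nt (distal) before the end. GC content in the 100 nt upstream had a median of 37% at proximal and 33% at distal sites, and of 39% and 38% in the 100 nt downstream.

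Libraries held 3863468 to 6475987 reads (R749H) and 2479851 to 10135014 reads (wild-type) within 5 kb of stop codons. R749H replicate 3 stood apart: 6.60% of its isoforms had only 1 read, against 30.05% to 36.19% in the other libraries. In that library 44 members had a distal share of exactly 0 or 100% and 2 had no reads, against at most 4 members in any other library. Members held 1.89% to 2.15% of the reads of R749H libraries and 2.12% to 2.66% of those of wild-type libraries. The HEK293 markers VIM, KRT8, KRT18 and ENO2 were at 42.7 to 866 CPM (reads per 1 M after TMM scaling), NEFM and PAX2 reached at most 0.311 and 4.06 CPM, and COL1A1 and ALB, markers of other cell types, at most 0.698 CPM. VIM was at 56.4 to 67.2 CPM in R749H and at 75.4 to 138 CPM in wild-type libraries. PAX2 was at 0 to 0.886 CPM in R749H and at 1.25 to 4.06 CPM in wild-type libraries. KRT8, KRT18 and ENO2 overlapped between the groups. NEFL, a further HEK293 marker, and PTPRC, a further marker of other cell types, had no entry.

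Across the members as a set, distal shares were only slightly lower in R749H cells, and the libraries of the 2 groups overlapped. The median distal share over the 558 members was 48.0, 43.0, 44.5 and 37.4% in R749H replicates 1 to 4, and 50, 46.8, 45.2, 45.5 and 43.7% in wild-type replicates 1 to 5. R749H replicates 2 and 4 lay below every wild-type library, replicates 1 and 3 did not, and replicate 4 was the lowest. The means were 43.2% ± 4.39 (SD, n = 4) and 46.2% ± 2.37 (SD, n = 5). The median log2 change of distal to proximal reads was -0.20 for the members and -0.06 for all 4224 entries tested, and 325 members (58.2%) had a lower value in R749H against 57.5% of all entries. Without R749H replicate 4 the members’ median was -0.06, and without wild-type replicate 1 it was -0.13. Without R749H replicate 3 it was -0.20.

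**Figure D2:**
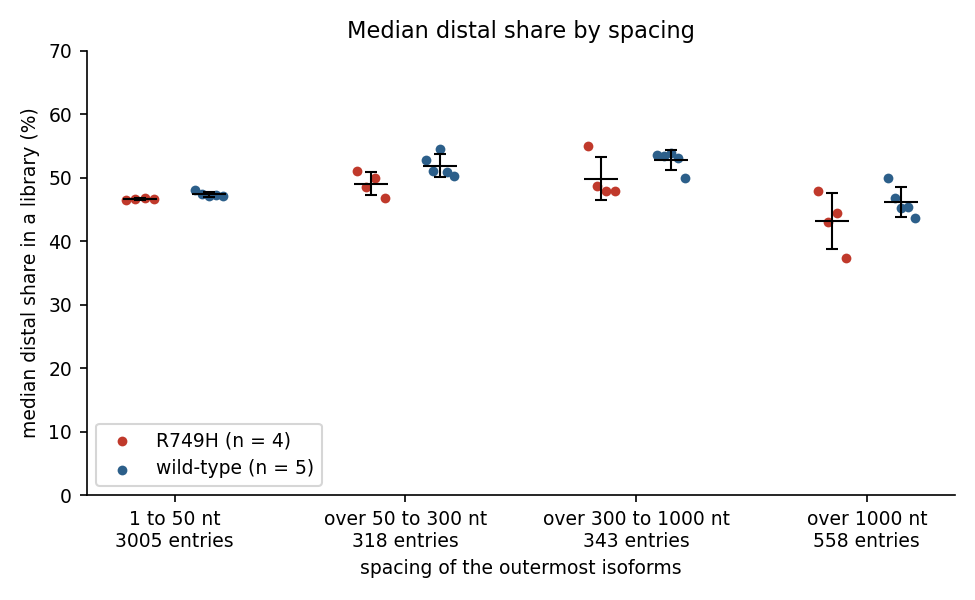
Median distal share (%) in each library (points) for entries grouped by the spacing of their outermost isoforms, with the mean and SD over 4 R749H and 5 wild-type libraries (black). For members (over 1000 nt) the R749H medians range from 37.4% to 48.0% and the wild-type medians from 43.7% to 50%, and libraries scatter more than for entries spaced by 1 to 50 nt.

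Entries with closer sites gave medians of the same direction with less scatter between libraries. The median log2 change was -0.16 for 343 entries spaced by over 300 to 1000 nt, -0.18 for 318 entries spaced by over 50 to 300 nt, and -0.05 for 3005 entries spaced by 1 to 50 nt. At 1 to 50 nt the per-library medians had an SD of 0.177 percentage points in R749H and 0.361 in wild-type. The sizes of these classes differ, and no test of their medians was made.

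Single members changed in both directions. With limma, 10 of the 558 members (1.79%) had a changed distal share at an adjusted p under 0.05, 4 of them higher and 6 lower in R749H, against 0.379% (16 entries) of the 4224 tested. At an unadjusted p under 0.05, 133 members (23.8%) passed, 87 lower and 46 higher, where 10.8% of all entries did. All R749H libraries lay below all wild-type libraries for 34 members (6.09%; 3.1% of all entries) and above them for 21 (3.76%; 1.49% of all entries). The background entries include the members, and 3005 of them had sites 1 to 50 nt apart, where 0.067% were called. At over 50 to 300 nt 0.63% were called, and at over 300 to 1000 nt 0.58%. Libraries did not overlap, in either direction, for 3.13%, 7.23% and 6.41% of these 3 classes and for 9.86% of members. The number of calls depended on single libraries: 1 member (CCDC9) passed without R749H replicate 2, without R749H replicate 4, or without wild-type replicate 3 or 4. Without wild-type replicate 2 it was 2 members, without wild-type replicate 5 it was 3, without R749H replicate 3 or wild-type replicate 1 it was 8, and without R749H replicate 1 it was 25. Without R749H replicate 1 the members with all R749H libraries below were 79, without wild-type replicate 5 they were 58, and without R749H replicate 4 those below were 38 and those above 39. Without R749H replicate 3 they were 49 below and 24 above. Leaving out a library can only keep or raise such counts, and no share over all entries is given beside them.

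**Figure D3:**
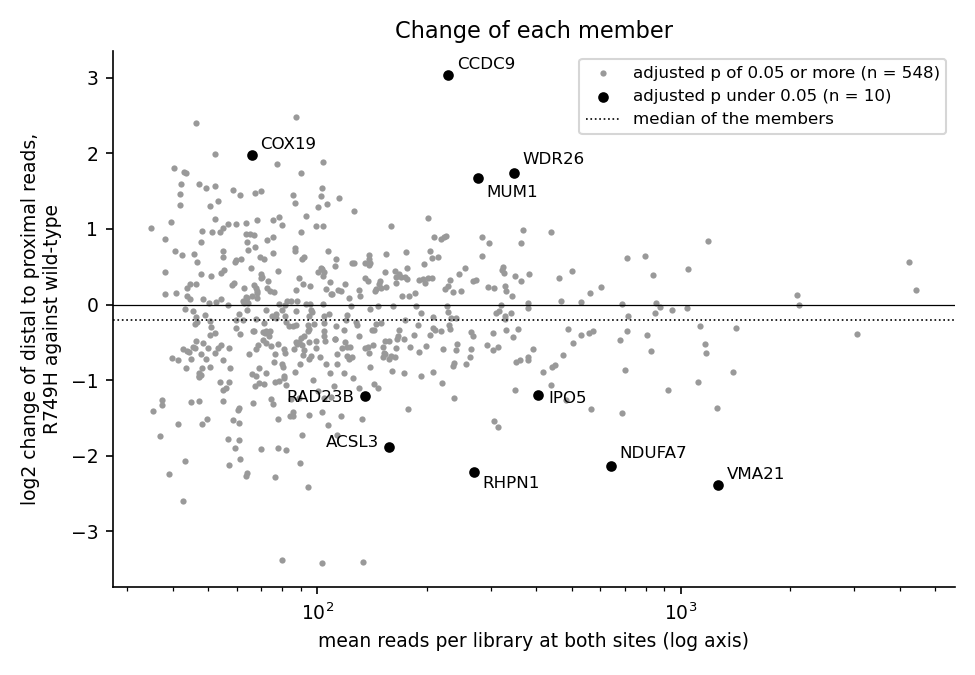
Log2 change of distal to proximal reads (R749H against wild-type, y axis) of 558 members against their mean reads per library (x axis, log scale). Black points are the 10 members with an adjusted p under 0.05, and the dotted line is the members’ median of -0.20, just below 0.

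CCDC9, a coiled-coil domain gene (CCDS12698.1), had a higher distal share in R749H cells. The distal site lay 2156 nt after the stop codon, outside annotated genes of that strand, and the proximal site 273 nt after it. Its distal share and its total thus rest on the attribution of the distal reads to this stop codon. CCDC9 had distal shares of 85.8, 90.3, 87.5 and 83.1% in R749H replicates 1 to 4, and of 38.9, 49.1, 51.6, 39.2 and 43.5% in wild-type replicates 1 to 5. The groups were far apart, and every R749H library lay well above the highest wild-type library. The log2 change was 3.03 (SE 0.24, adjusted p = 0.000113 by limma), and it passed the threshold in all 22 alternatives. Reads on the proximal side were 7.62 ± 2.51 RPM (reads per 1 M reads of the library) in R749H and 18.1 ± 3.17 in wild-type, and reads on the distal side 49.1 ± 6.94 and 14.9 ± 4.57 (mean ± SD). The total of CCDC9 rose as well, by 1.11 on the log2 scale (adjusted p = 0.00309 by limma), and its distal reads differed by more than its proximal reads.

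WDR26, a scaffold subunit of the CTLH ubiquitin ligase (CCDS31037.2), showed the same direction from a higher starting share. WDR26 shares were 87.1, 92.4, 91.2 and 90.8% in R749H replicates 1 to 4 and 64.0, 80.2, 79.1, 75.3 and 68.6% in wild-type replicates 1 to 5. All R749H libraries lay above all wild-type libraries, with R749H replicate 1 the nearest. The log2 change was 1.74 (SE 0.26, adjusted p = 0.0342 by limma), over sites 3992 nt apart. Proximal reads were 7.17 ± 1.28 RPM in R749H and 15.9 ± 5.37 in wild-type, and distal reads 68.5 ± 12.4 and 43.0 ± 2.91.

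COX19 and MUM1 also had higher distal shares in R749H, mainly with fewer proximal reads. COX19, an assembly factor of cytochrome c oxidase (CCDS34582.1), had shares of 56.1, 65.1, 65.2 and 53.8% in R749H replicates 1 to 4 and 20.0, 28.6, 29.3, 33.0 and 26.7% in wild-type replicates 1 to 5 (log2 change 1.98, SE 0.35, adjusted p = 0.0457 by limma). Its sites lay in 1 exon on chromosome 7, at 2436 and 4524 nt after the stop codon. MUM1, a PWWP domain gene (CCDS12062.1), had shares of 71.9, 83.3, 73.3 and 83.3% in R749H and 66.4, 50.9, 53.3, 52.5 and 41.4% in wild-type libraries, in replicate order (log2 change 1.68, SE 0.31, adjusted p = 0.0457 by limma). Its ATTAAA signals lay at both sites, 1482 nt apart on chromosome 19. The groups did not overlap in either gene, but wild-type replicate 1 of MUM1 came close to the lowest R749H library. Distal reads of MUM1 were 29.1 ± 6.33 RPM in R749H and 32.2 ± 4.52 in wild-type, while proximal reads were 8.74 ± 4.40 and 28.9 ± 6.23.

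VMA21, an assembly chaperone of the vacuolar ATPase (CCDS35430.1), had the largest decrease among the called members. VMA21 shares were 58.4, 26.4, 25.8 and 21.3% in R749H replicates 1 to 4 and 82.2, 70.5, 67.6, 66.5 and 65.9% in wild-type replicates 1 to 5. The groups did not overlap, and replicate 1 stood above the other libraries in each of them. The log2 change was -2.39 (SE 0.42, adjusted p = 0.0457 by limma), over sites 102 and 4305 nt after the stop codon. With 844 to 2003 reads per library it is among the better covered members, and it was called in 1 of the 9 fits that left out a library. Proximal reads were 189 ± 64.0 RPM in R749H and 63.6 ± 10.5 in wild-type, and distal reads 86.8 ± 31.2 and 164 ± 68.7.

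NDUFA7, an accessory subunit of respiratory complex I (CCDS42492.1), and ACSL3, a long-chain acyl-CoA synthetase of the endoplasmic reticulum and lipid droplets (CCDS2455.1), had lower distal shares in R749H. NDUFA7 had shares of 18.6, 12.4, 4.39 and 9.51% in R749H replicates 1 to 4 and 34.0, 30.1, 35.4, 32.6 and 33.2% in wild-type replicates 1 to 5 (log2 change -2.13, SE 0.34, adjusted p = 0.0433 by limma). Wild-type libraries of NDUFA7 lay close to each other, and the R749H libraries spread over a wider range below them. Without R749H replicate 3, the lowest library of both genes, the log2 changes of NDUFA7 and ACSL3 were -1.71 and -1.60. ACSL3 had shares of 73.8, 57.6, 44.4 and 59.0% in R749H and 77.3, 87.4, 86.7, 85.6 and 83.0% in wild-type libraries, in replicate order (log2 change -1.88, SE 0.35, adjusted p = 0.0457 by limma). Replicate 1 of each group came closest to the other group in ACSL3. Distal reads of ACSL3 were 11 ± 3.43 RPM in R749H and 31.1 ± 4.10 in wild-type, and its proximal reads 7.84 ± 3.43 and 5.93 ± 1.65.

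RHPN1, RAD23B and IPO5 completed the 6 lower members. RHPN1, on chromosome 8 (CCDS47927.1), had shares of 46.7, 35.6, 25.5 and 33.3% in R749H replicates 1 to 4 and 83.5, 66.9, 64.3, 73.6 and 65.6% in wild-type replicates 1 to 5 (log2 change -2.21, SE 0.34, adjusted p = 0.0342 by limma). RAD23B, which acts in nucleotide excision repair and delivers substrates to the proteasome (CCDS6769.1), had 15.2, 12.8, 17.2 and 16.5% in R749H and 33.0, 29.2, 25.9, 30.7 and 30.5% in wild-type libraries (log2 change -1.21, SE 0.23, adjusted p = 0.0476 by limma). IPO5, a nuclear import receptor (CCDS31999.1), had 20.2, 23.5, 19.4 and 19.0% in R749H and 46.9, 40.1, 35.7, 33.3 and 30.9% in wild-type libraries (log2 change -1.20, SE 0.20, adjusted p = 0.0457 by limma). None of the 3 genes had overlapping groups, and the R749H libraries of RAD23B and IPO5 lay close to each other. Proximal reads of IPO5 were 54.5 ± 9.68 RPM in R749H and 52.1 ± 6.25 in wild-type, and distal reads 14.1 ± 2.37 and 31.7 ± 9.91. Without single libraries, COX19, WDR26, MUM1, VMA21, RHPN1, NDUFA7, ACSL3, RAD23B and IPO5 kept their directions and passed in 0 (RAD23B) to 4 (WDR26 and RHPN1) of 9 fits, and none of them passed without R749H replicate 4.

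**Figure D4:**
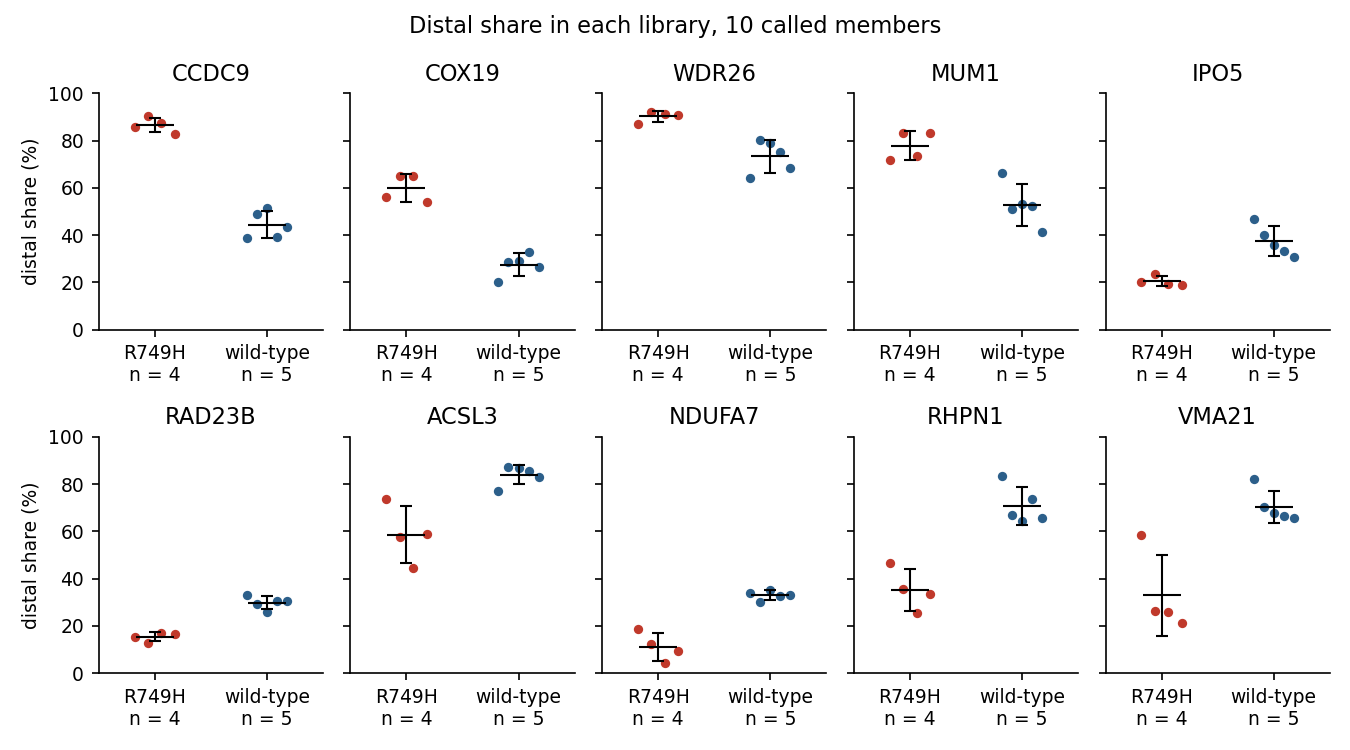
Distal share (%) in each library (points) of the 10 called members, with the mean and SD (black) of 4 R749H and 5 wild-type libraries. Groups do not overlap in any panel, and R749H replicate 1 of VMA21, at 58.4%, is nearer to the wild-type libraries than the other 3.

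**Figure D5:**
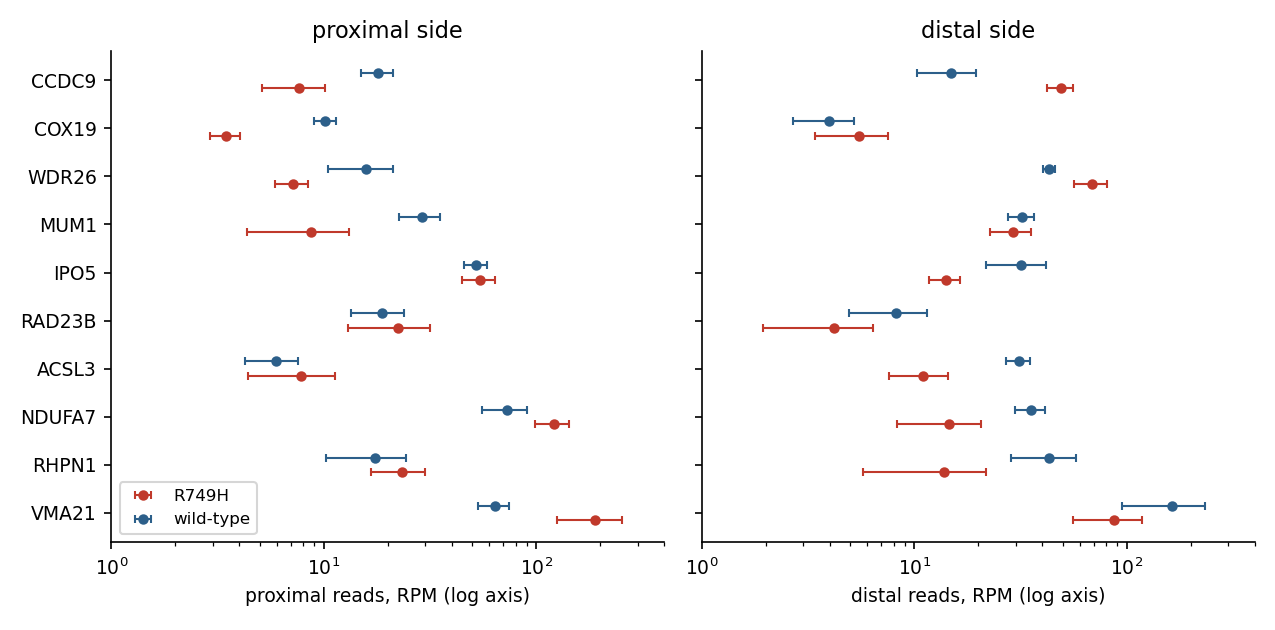
Depth-scaled reads (RPM, log axis) on the proximal and on the distal side of the midpoint in the 10 called members, as mean and SD of 4 R749H (red) and 5 wild-type (blue) libraries. In IPO5, RAD23B and ACSL3 the proximal means lie close together and the distal means apart, and in MUM1 the reverse is seen.

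Members that did not pass the adjusted threshold but whose groups did not overlap included 4 with large changes in each direction. NUDT21 had shares of 12.1, 5.15, 0 and 3.03% in R749H replicates 1 to 4 and 28.6, 17.2, 28, 21.6 and 23.7% in wild-type replicates 1 to 5 (log2 change -3.41, SE 0.85, adjusted p = 0.132 by limma). The 0 rests on 0 of 129 reads in R749H replicate 3, which allows a share of up to 2.33% by counting error alone, and the fitted change depends on the reads added. Without that library the log2 change was -2.28 and passed the threshold, as it did without R749H replicate 1 (adjusted p = 0.0282 by limma). Without any other single library NUDT21 did not pass (adjusted p = 0.172 to 0.273 by limma). The assignment of its distal reads is uncertain, as given with its sites. Proximal NUDT21 reads were 33.0 ± 6.74 RPM in R749H and 13.9 ± 1.75 in wild-type, and distal reads 1.63 ± 1.47 and 4.51 ± 1.58. The total of NUDT21 rose by 1.23 on the log2 scale (SE 0.21, adjusted p = 0.000902 by limma).

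USP3, a deubiquitinase of histones, had shares of 16.7, 2.00, 0 and 1.39% in R749H replicates 1 to 4 and 17.5% to 32.8% in wild-type libraries (log2 change -3.37, adjusted p = 0.103 by limma). R749H replicate 1 was close to the lowest wild-type library and the others were near 0, where 0 of 54 reads in replicate 3 allow up to 5.56%. MELK, a protein kinase, had shares of 0 to 22.6% in R749H and 27.9% to 47.9% in wild-type libraries (log2 change -2.60, adjusted p = 0.216 by limma). Its 0 is 0 of 32 reads in R749H replicate 4, which allow up to 9.38%, and without that library the log2 change was -1.63. TBC1D15, a GTPase-activating protein for RAB7, had 0 to 15.8% and 19.6% to 36.7% (log2 change -2.24, adjusted p = 0.283 by limma). Its 0 is 0 of 29 reads in R749H replicate 3, which allow up to 10.3%, and without that library the log2 changes of TBC1D15 and USP3 were -1.34 and -2.66.

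In the other direction, TANGO2, a gene of Golgi organization, had shares of 38.9% to 59.1% in R749H and 13.6% to 23.4% in wild-type libraries (log2 change 1.99, adjusted p = 0.0632 by limma). SAYSD1 had 64.3% to 80.0% and 19.0% to 53.3% (log2 change 1.74, adjusted p = 0.216 by limma). CDK13, a kinase of the Pol II C-terminal domain, had 93.3% to 100% and 82.0% to 91.5% (log2 change 1.60, adjusted p = 0.166 by limma). GPC1, a heparan sulfate proteoglycan, had 88.7% to 100% and 81.0% to 88.0% (log2 change 1.86, adjusted p = 0.362 by limma). The 100% values of CDK13 and GPC1 both came from R749H replicate 3, with 10 and 52 reads. By counting error alone these allow a proximal share of up to 30% in CDK13 and 5.77% in GPC1. Without that library the log2 changes of CDK13 and GPC1 were 1.41 and 0.90.

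The most widely spaced members were KLHL42 (4870 nt, a KLHL family adaptor of a ubiquitin ligase), ZNF256 (4867 nt), ZNF142 (4807 nt) and SNAP29 (4760 nt, a SNARE protein). None of them passed the adjusted threshold. KLHL42 had shares of 56.1% to 93.3% in R749H and 66.7% to 79.7% in wild-type libraries, ZNF142 had 19.0% to 49.8% and 20.6% to 46.8%, and SNAP29 had 18.6% to 33.3% and 8% to 26%. These 3 overlapped broadly, whereas the R749H libraries of ZNF256 (22.7% to 53.2%) all lay below its wild-type libraries (54.0% to 65.5%; log2 change -0.92, adjusted p = 0.481 by limma).

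The 4 members with most reads had log2 changes of -0.39 to 0.57. RPL22, a ribosomal protein gene, had a mean distal share of 70.9% ± 3.11 in the 4 R749H libraries and 70.7% ± 5.85 in the 5 wild-type libraries (mean ± SD), with a log2 change of 0.00 (SE 0.20). HSBP1, a negative regulator of heat shock factor, had 81.0% ± 1.68 and 77.8% ± 10.5 (log2 change 0.19, SE 0.32). CIRBP, a cold-inducible RNA-binding protein, had 32.2% ± 5.75 and 38.2% ± 6.30 (log2 change -0.39, SE 0.21). NDUFB10 had 59.6% ± 2.50 and 49.9% ± 10.1 (log2 change 0.57, SE 0.24). Its distal site lay in an exon of SNHG9, and the assignment of its distal reads is uncertain, as stated above. Wild-type replicate 5 of NDUFB10, at 64.2%, lay above the R749H libraries (56.2% to 61.6%). The other wild-type libraries (38.9% to 52.7%) lay below them. With 1189 to 7101 reads per library, the ranges of the 2 groups overlapped in each of these genes, and none passed the adjusted threshold.

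Among 14 genes on a list of textbook cases of alternative polyadenylation with 200 reads, 5 were members, among them VMA21, NUDT21, ELAVL1 and TIMP2. VMA21 passed the threshold, and 4 of the 5 had a lower and 1 a higher value (median log2 change -0.41, against -0.20 for all members). ELAVL1, which encodes the AU-rich element binding protein HuR, had 52.9% ± 5.03 in R749H and 59.5% ± 10.7 in wild-type. TIMP2, an inhibitor of metalloproteinases, had 76.9% ± 14.7 and 76.2% ± 2.75. Both overlapped between groups.

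Of 13 genes of the cleavage and polyadenylation machinery with 200 reads, 3 were members: NUDT21, CSTF1 and CSTF2T. CSTF1, a subunit of the cleavage stimulation factor, had 30.1% ± 10.3 in R749H and 27.7% ± 9.87 in wild-type (log2 change 0.18, SE 0.44). CSTF2T, a paralog of its RNA-binding subunit, had 25.6% ± 8.09 and 20.8% ± 4.58 (log2 change 0.36, SE 0.39). By total reads, 26 entries (23 genes) of that machinery were tested: 5 rose and 2 fell in R749H, where 10.9% of all entries tested rose and 12.8% fell. CSTF3 rose by 1.31 (adjusted p = 0.000946 by limma) in 1 of its 2 entries and had a value of -0.86 in the other (adjusted p = 0.141 by limma), CSTF2 by 1.07 (adjusted p = 0.00374 by limma) and PAPOLA, a poly(A) polymerase, by 1.28 in 1 of its 2 entries (adjusted p = 0.0107 by limma) with 0.42 in the other, all on the log2 scale. CPSF1 also rose, by 0.54. PABPN1, the nuclear poly(A) binding protein, fell by 0.76 and CPSF3, the endonuclease, fell by 0.73 on the log2 scale (adjusted p = 0.0318 and 0.0398 by limma). On the list of 3’ UTR binding proteins, 1 of 15 genes with 200 reads was a member, ELAVL1.

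By sequence class, the median log2 change was -0.32 for 204 members with AATAAA at both sites, -0.35 for 76 with it only at the proximal site, -0.22 for 111 with it at neither site, and 0.05 for 167 with it only at the distal site. By spacing, it was -0.15 at over 1000 to 1500 nt (n = 165), -0.21 at over 1500 to 2000 nt (n = 134), -0.01 at over 2000 to 3000 nt (n = 160) and -0.42 at over 3000 nt (n = 99, of which 66 were lower in R749H). The order of the spacing classes was not monotonic, and Spearman’s rho between spacing and log2 change was -0.04 across the 558 members, which share libraries and are not independent replicates. For 161 members whose proximal site lay within 200 nt of the stop codon the median was -0.35, with 14 members whose R749H libraries all lay below the wild-type libraries and 2 whose libraries lay above, beside 6.09% and 3.76% of all members and 3.1% and 1.49% of all entries. These classes were not compared by a test.

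The total reads of the members were also compared. Of 558 members, 95 (17.0%) had lower and 49 (8.78%) had higher expression in R749H at an adjusted p under 0.05 by limma, against 12.8% lower and 10.9% higher of the 9681 entries tested. The median log2 change was -0.08 for members and -0.07 for all entries. Without R749H replicate 2 the number of called members was 85 in place of 144, and without R749H replicate 4 it was 93. In bulk RNA, fewer cells that express a gene and less RNA per cell cannot be told apart. Of the 10 members with a changed distal share, 5 had changed totals: CCDC9 (1.11), WDR26 (0.67), NDUFA7 (0.65) and VMA21 (0.64) rose and ACSL3 fell by 0.67 on the log2 scale. Across the members, Spearman’s rho between the change of the distal share and that of expression was -0.03.

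At the thresholds of the selection, CCDC50 was just inside the spacing limit (1003 nt) and ST13 just outside it (1000 nt). MON2 was just inside the limit on the isoform share (10.001%) and LRP8 just outside it (9.999%). SUFU was just inside the limit on reads (200.13) and ARHGAP11A just outside it (199.33). With the sites chosen in the merged R749H data instead, 452 entries qualified, 362 of them among the 558 members. Their median log2 change was -0.18, and 13 passed the threshold, 8 lower and 5 higher.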

How the data were processed

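The members and gene lists were chosen with earlier results of these data known. The deposited signal values are 3’ READS reads per isoform, which the authors mapped to hg19 (bowtie in the methods, Bowtie2 2.3.2 in the submitters’ processing notes), kept with non-templated As, attributed to the CCDS stop codon within 5 kb before them, and scaled to 7 M reads per replicate and 25 M per merged cell line. Whole reads were recovered for 100% of values (tolerance 0.1 reads). Totals and their precision are given with the libraries. The 4 eNETseq libraries are not analysed here.

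Log2 odds of distal to proximal reads (0.5 reads added per side, scaled to depth, mean of at least 20 reads) and log2 reads per entry (TMM factors, filterByExpr) were tested with limma 3.58.1 in R 4.3.3, adjusted by the Benjamini-Hochberg method over all entries, with 0.05 as the threshold. edgeR 4.0.16 and DESeq2 1.42.0 on recovered reads were alternatives, with other priors, filters, depths and site definitions. Fits were also run on simulated reads with planted changes and the same dispersion for every entry. That setting need not match the spread of these libraries, so it does not bear on the stability of the calls. Sequence came from GRCh37 and annotation from GENCODE lifted to GRCh37.

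Members were named by rule: up to 6 called per direction, the 4 largest non-overlapping others per direction, the 4 widest, the 4 with most reads, those at the thresholds, and those on the 3 polyadenylation and 3’ UTR lists. Genes of the cleavage machinery named for expression were chosen after their values were seen. A named member and a gene list are not reported here.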

Additional observations from a re-analysis of the deposited data

Results flagged for a closer look

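Of 44 sets of library values examined for a value far from the rest of its group, 5 were flagged, and chance flags about 1 in 20 groups. R749H replicate 3 had 6.60% of isoforms with 1 read, against 34.6% to 35.3% in the other R749H libraries. Wild-type replicate 1 had 2.66% of its reads in the members, against 2.12% to 2.28% in the other wild-type libraries. VMA21 had a distal share of 58.4% in R749H replicate 1 (95% Wilson interval 55.8% to 60.9%, for counting error only), against 21.3% to 26.4% in the other R749H libraries. The same gene had 82.2% in wild-type replicate 1 (95% Wilson interval 79.5% to 84.7%), against 65.9% to 70.5% in the other wild-type libraries. USP3 had 16.7% in R749H replicate 1 (95% Wilson interval 10.0% to 26.5%, 13 of 78 reads), against 0 to 2.00% in the other R749H libraries.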

How the results depend on the processing

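The 10 called members became 18 with edgeR, 42 with DESeq2, 1 with 0.1 reads added and 17 with 2 reads added, 3 with isoforms of at least 20% and 5 over 2000 nt, and for all tandem entries the 16 calls became 32, 76, 1 and 30 under the first 4 of these. Those definitions gave 177 and 259 members, with 10 and 19 members without overlap lower in R749H and 6 and 8 higher. Leaving out single libraries gave 1 to 25 called members, 1 to 40 called entries, 37 to 79 and 23 to 39 members without overlap lower and higher, 85 to 179 members with changed expression, and member medians of -0.28 to -0.06. Counts without overlap can only stay or rise when a library is left out. Over all 4224 entries, same-numbered libraries correlated at -0.03 to 0.01 in their deviations. Of these entries 3005 had sites 1 to 50 nt apart, so the correlations do not settle whether replicate numbers pair the libraries for the members. With a replicate block on replicates 1 to 4, 11 members were called. Without the block, an alternative chosen after the data were seen, it was 3 members and 4 entries. The members' median and the 18 refitted named members kept their directions, but with isoforms of at least 20% the 3 calls were 1 lower and 2 higher, and without R749H replicate 4 members without overlap were 38 lower and 39 higher. Counting each pair of positions once gave the same 10 called members and 16 called entries. Whether an isoform was listed under more than 1 entry was not tested. Thinning to the smallest library called 13 members. Counting only reads within 50 nt of the 2 sites called 10 members. NDUFA7 (adjusted p = 0.0652 by limma) and RAD23B (adjusted p = 0.0774 by limma) were not among them, and USP3 was (adjusted p = 0.0392 by limma). The cause of these differences was not tested. Of refits of the 10 called and 8 other named members without overlap, 237 kept their side of the threshold, 85 lost the call and 14 gained it. In R749H replicate 3, 2 members have no reads, and few reads limit shares near 0 and 100%.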

Other observations

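For gene classes defined by their symbols, the share of entries that were members is given beside 9.30% of all entries with 200 reads. The counts are small, and these shares were not compared by a test. Of 113 zinc finger (ZNF) entries, 16 (14.2%) had sites over 1000 nt apart, and 8 of these had lower and 8 higher values in R749H (median log2 change -0.04). Ubiquitin conjugating enzymes gave 4 of 24 entries (16.7%), UBE2D3, UBE2H, UBE2S and UBE2V2 (median log2 change -0.07). RING finger genes gave 3 of 29 (10.3%), RNF115, RNF40 and RNF41 (median 0.20). Transmembrane protein (TMEM) genes gave 12 of 98 entries (12.2%, median -0.05) and solute carriers 7 of 84 (8.33%, median -0.22). Ribosomal protein genes, which mostly have short 3’ UTRs, gave 2 of 74 entries (2.70%), RPL15 and RPL22 (median -0.02). No member of these classes passed the adjusted threshold for the distal share by limma.

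By total reads, 21 genes of the alternative polyadenylation list were tested and 3 rose and 1 fell in R749H, and among 25 entries of 3’ UTR binding proteins 5 rose and 4 fell (adjusted p under 0.05 by limma, median log2 changes 0.17 and -0.38), where 10.9% of all 9681 entries tested rose and 12.8% fell.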
